A study of Mus musculus with 6 samples.

Results

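Levels of 10 regulators downstream of the circadian clock were followed in mouse liver with and without Cyr61: the PAR bZIP factors Dbp, Tef and Hlf, their competitor Nfil3, the repressors Ciart, Bhlhe40 and Bhlhe41, and the effectors Usp2, Wee1 and Rgs16. They are 10 of the 24411 gene symbols in the count tables, and 9 of them, Ciart being the exception, are among the 13563 genes with enough counts to test. The members were chosen by name from results of the same comparison of these libraries, so their differences between the groups are given as a description; no p-value is printed for a member, and counts of members called stand only beside the share of all genes called. The groups were 3 Cyr61 KO livers and 3 Control livers. Both came from male Cyr61fl/fl mice 24 weeks old whose diet over 12 weeks was one that induces non-alcoholic steatohepatitis (NASH), and RNA was sequenced from frozen whole liver. The labels do not name the Cre driver or the cells in which Cyr61 was deleted, whether each library is a separate mouse, the hour at which livers were taken, or whether the mice had fasted. Errors and p-values below measure only the spread between these libraries, which may be technical.

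The circadian clock is a feedback loop in which ARNTL (BMAL1) with CLOCK or NPAS2 activates genes through E-boxes, and PER and CRY proteins then shut that activity off. Its outputs include the PAR bZIP (proline and acidic amino acid-rich basic leucine zipper) factors, which bind D-boxes and drive hepatic genes of detoxification and lipid metabolism, while NFIL3 (E4BP4) binds the same sites and represses. In liver many of these transcripts swing steeply over the day, Dbp among the steepest, and feeding time can shift them. A level read from a single liver therefore depends on when it was collected.

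The libraries were first checked against their labels. Levels are given as TMM-normalised CPM (counts scaled by library size) in the order of replicates 1, 2 and 3. Cyr61 stood at 3.77, 2.66 and 3.14 CPM in the knockouts, against 15.6, 32.4 and 27.8 CPM in the Controls. The libraries held 21032878 to 40377742 counts in genes. Reads assigned to genes made up 50.9% in Control replicate 2 and 82.8% to 87.6% in the other libraries. The summed level of 12 hepatocyte markers ran from 109914 to 134169 CPM in Cyr61 KO and from 42209 to 104265 CPM in Control. Every Cyr61 KO sum thus lay above every Control sum, and Control replicate 2 was the lowest. Most of the sum was Alb, at 90103, 77118 and 81391 CPM in Cyr61 KO, against 66677, 23799 and 66177 CPM in Control. The separation rested on Alb, since the sums of the other markers overlapped between the groups. Apoa1, the next largest, was at 22074, 12022 and 8964 CPM in Cyr61 KO, against 12807, 8477 and 20198 CPM in Control. Of the 12 markers, 4 were higher in Cyr61 KO without overlap, 1 was lower and 7 overlapped, where 35.2% of all tested genes did not overlap. The lower marker, Ass1, was near the floor, at 3, 5 and 6 counts in Cyr61 KO, against 15, 16 and 14 counts in Control.

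RefSeq promoter windows on GRCm38.p6, from 250 bases before to 50 after a gene's start, were at hand for 8 of the 10 members in 9 windows. They were searched on both strands for the E-box CACGTG, the site of the ARNTL dimer, and for the D-boxes TTATGTAA and TTACGTAA. E-boxes lay in 4 windows of 3 members, Ciart, Tef and Bhlhe41, against 7.15% of all 32851 promoter windows of this length, and D-boxes in 0 windows, against 1.06%. The windows below are those with E-boxes (the first of the pair for Tef), and those of Dbp and Rgs16, which among the tested members had the widest spread within Cyr61 KO (Dbp) and the largest difference between the groups (Rgs16). Capitals mark the E-boxes. They begin 116, 58 and 44 bases before the start in Ciart, 127 in Tef and 153 in Bhlhe41, and a match is a description of letters, not evidence of binding.
Ciart, chr3:95882179-95882478, minus strand: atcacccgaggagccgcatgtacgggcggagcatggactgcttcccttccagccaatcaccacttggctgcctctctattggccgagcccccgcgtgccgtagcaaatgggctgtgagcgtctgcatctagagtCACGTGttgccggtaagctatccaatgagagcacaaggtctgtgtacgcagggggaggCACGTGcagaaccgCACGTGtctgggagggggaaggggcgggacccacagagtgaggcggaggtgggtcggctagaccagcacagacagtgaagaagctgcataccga
Tef, chr15:81802423-81802722, plus strand: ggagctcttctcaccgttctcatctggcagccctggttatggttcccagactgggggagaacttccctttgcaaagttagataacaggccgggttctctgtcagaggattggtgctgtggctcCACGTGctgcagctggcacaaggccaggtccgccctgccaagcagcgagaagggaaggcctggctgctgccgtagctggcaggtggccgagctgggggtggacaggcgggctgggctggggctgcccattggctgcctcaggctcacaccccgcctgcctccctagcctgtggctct
Bhlhe41, chr6:145865371-145865670, minus strand: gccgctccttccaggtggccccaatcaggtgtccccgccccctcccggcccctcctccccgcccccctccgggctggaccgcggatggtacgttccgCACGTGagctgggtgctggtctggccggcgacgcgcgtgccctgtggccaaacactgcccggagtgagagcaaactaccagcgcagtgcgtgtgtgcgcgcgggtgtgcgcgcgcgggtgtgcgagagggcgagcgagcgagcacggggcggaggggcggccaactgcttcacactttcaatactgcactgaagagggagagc
Dbp, chr7:45704997-45705296, plus strand: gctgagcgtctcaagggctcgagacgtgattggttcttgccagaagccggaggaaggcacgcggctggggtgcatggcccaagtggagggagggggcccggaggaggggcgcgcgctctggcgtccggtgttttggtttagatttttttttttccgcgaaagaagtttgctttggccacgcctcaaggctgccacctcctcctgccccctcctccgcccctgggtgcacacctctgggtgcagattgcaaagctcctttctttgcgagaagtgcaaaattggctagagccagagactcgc
Rgs16, chr1:153740103-153740402, plus strand: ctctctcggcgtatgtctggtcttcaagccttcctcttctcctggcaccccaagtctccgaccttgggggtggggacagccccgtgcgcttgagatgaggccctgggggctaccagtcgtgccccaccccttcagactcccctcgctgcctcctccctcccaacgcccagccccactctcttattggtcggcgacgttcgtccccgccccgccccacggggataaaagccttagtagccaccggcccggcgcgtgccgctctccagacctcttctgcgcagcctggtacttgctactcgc

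The PAR bZIP activators did not move as a block. Dbp (chromosome 7, 45705088 to 45710203, plus strand, GRCm38) was lower on average in Cyr61 KO livers but overlapped Control, Hlf was higher in every Cyr61 KO library, and Tef differed little. Dbp measured 10.1, 48.6 and 2.30 CPM in Cyr61 KO, against 40.6, 43.1 and 97.7 CPM in Control. The knockout values spanned 21.1-fold, and replicate 2 sat within the Control range while replicates 1 and 3 lay below it. The means were 20.3 ± 24.8 CPM in Cyr61 KO and 60.5 ± 32.3 CPM in Control (SD, n = 3 each), a log2 fold change of -1.58 ± 0.87 (SE). Without Cyr61 KO replicate 2 it was -3.27, and without Control replicate 3 or Cyr61 KO replicate 3 -1.03. Dbp overlaps Sphk2 on the opposite strand, and counted without regard to strand its difference was -1.20.

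Tef (chromosome 15, 81802421 to 81826863, plus strand) was at 31.9, 79.3 and 20.6 CPM in Cyr61 KO, against 51.4, 42.9 and 58.5 CPM in Control. Cyr61 KO replicate 2 was above every Control and the other knockouts below every Control. The log2 fold change was -0.21 ± 0.44 (SE), and ran from -0.94 without Cyr61 KO replicate 2 to 0.14 without Cyr61 KO replicate 3. Hlf (chromosome 11, 90336536 to 90390895, minus strand) was at 30.8, 68.1 and 33.8 CPM in Cyr61 KO, against 18.3, 9.67 and 21.1 CPM in Control. The groups did not overlap, and the means were 44.2 ± 20.7 CPM in Cyr61 KO and 16.4 ± 5.97 CPM in Control (SD, n = 3 each), a log2 fold change of 1.43 ± 0.38 (SE). The lowest Control value was that of replicate 2, which also had the least hepatocyte marker RNA, and without it the Hlf difference was 1.19. Without Cyr61 KO replicate 2, the highest library, it was 0.99.

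Nfil3 (chromosome 13, 52967209 to 52981073, minus strand), the repressor at the same D-boxes, was higher in Cyr61 KO by a narrow margin. It was at 63.6, 35.2 and 52.3 CPM in Cyr61 KO, against 34.9, 21.7 and 32.9 CPM in Control. The lowest knockout value and the highest Control value nearly touched. The log2 fold change was 0.76 ± 0.28 (SE), and 0.28 by limma voom with quality weights; leaving out each library in turn gave 0.56 to 0.97.

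**Figure D1:**
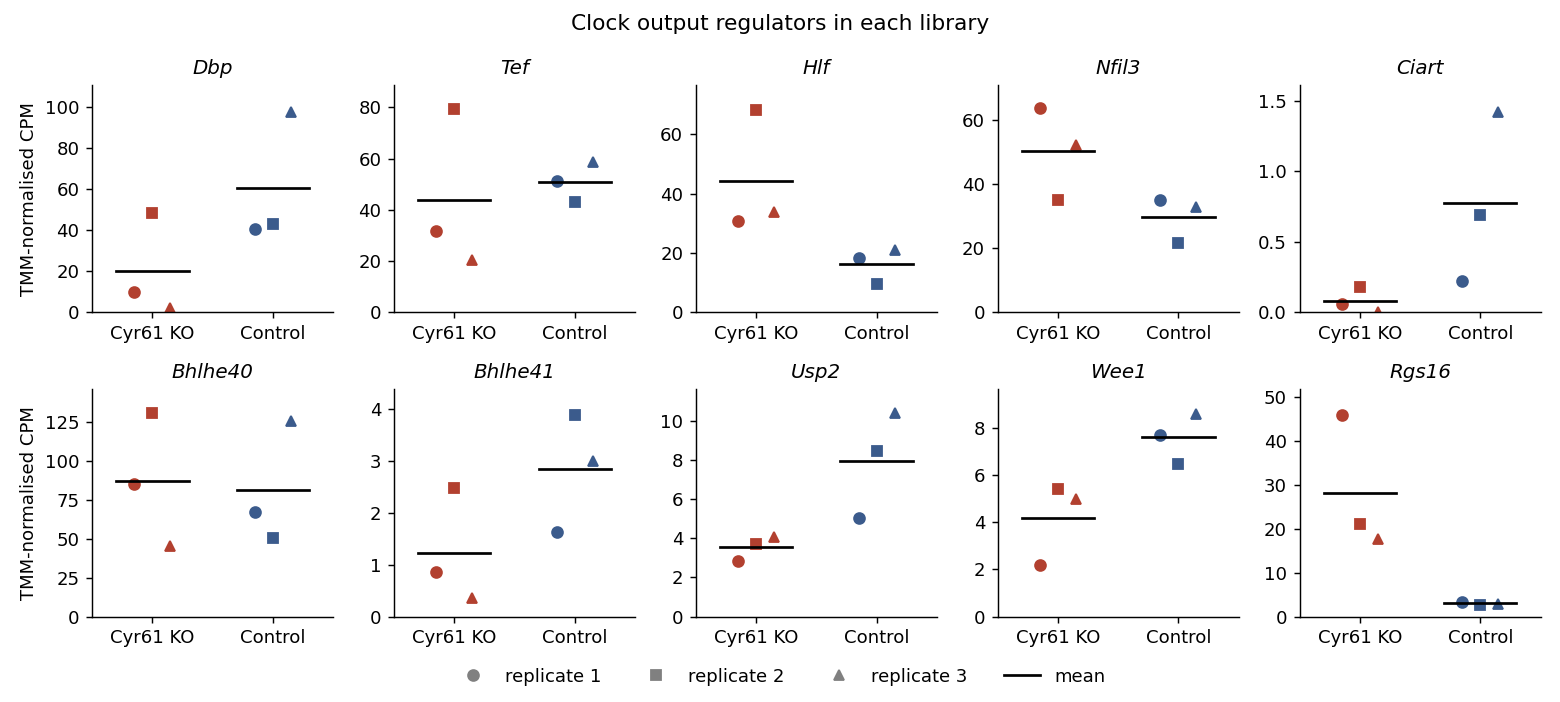
TMM-normalised CPM (vertical axes from 0, a scale for each gene) of the 10 regulators in the Cyr61 KO (left, red) and Control (right, blue) libraries; symbols give the replicate and black lines the mean of 3. Rgs16, Hlf and Nfil3 sit higher in every Cyr61 KO library, Usp2, Wee1 and Ciart lower, while Dbp, Tef, Bhlhe40 and Bhlhe41 overlap, with Cyr61 KO replicate 2 the highest knockout in each of those 4.

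Put on a common scale of CPM per kb of annotated exon, the shares of Dbp and Hlf in the PAR bZIP pool did not overlap between the groups, whereas the share of Tef and the size of the pool did. The summed Dbp, Tef and Hlf level was 12.0, 36.5 and 8.44 CPM per kb in Cyr61 KO, against 22.9, 21.3 and 43.2 CPM per kb in Control, so the groups overlapped. Dbp made up 28.0%, 44.5% and 9.10% of that sum in Cyr61 KO, against 59.4%, 67.6% and 75.5% in Control. Dbp was thus the most abundant of the 3 in every Control library, and in Cyr61 KO only in replicate 2. Hlf made up 38.3%, 27.9% and 59.9% in Cyr61 KO, against 12.0%, 6.80% and 7.31% in Control. Tef made up 33.7%, 27.6% and 31.0% in Cyr61 KO, against 28.6%, 25.6% and 17.2% in Control. The shares follow from the values that chose the members. The summed activators stood at 0.384, 2.10 and 0.327 times Nfil3 per length in Cyr61 KO, against 1.32, 1.99 and 2.67 times in Control. Nfil3 exceeded the activators in Cyr61 KO replicates 1 and 3 and in no other library. Exon length here joins all annotated isoforms, so the shares shift if a gene uses a short isoform.

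**Figure D2:**
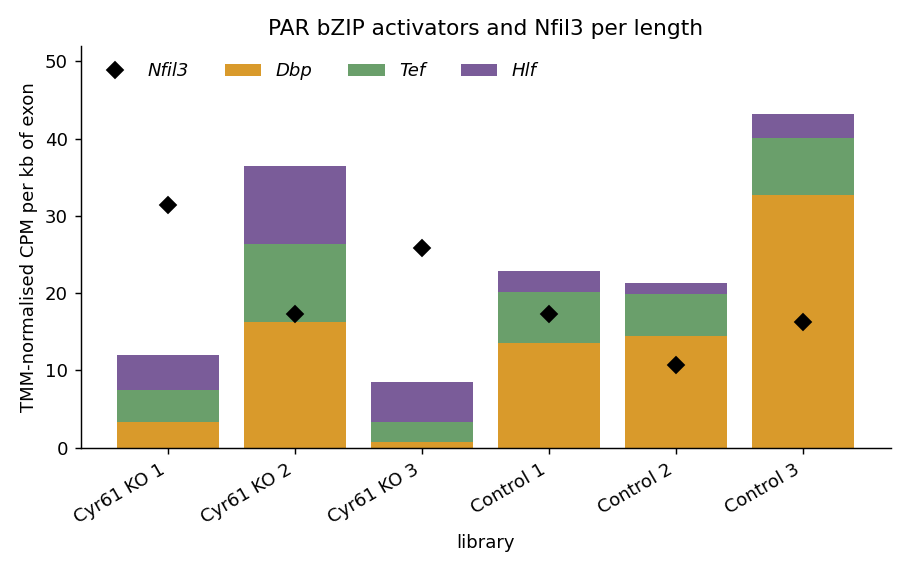
Stacked bars give the TMM-normalised CPM per kb of exon of Dbp, Tef and Hlf in each library, and black diamonds that of Nfil3, with Cyr61 KO libraries left of Control. Dbp fills 59.4% to 75.5% of the bar in Control and 9.10% to 44.5% in Cyr61 KO, and the diamond stands above the bar in Cyr61 KO replicates 1 and 3.

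Of the clock's own repressors, Ciart was lower in every Cyr61 KO library, and Bhlhe40 and Bhlhe41 overlapped. CIART (CHRONO) binds ARNTL and dampens its activity, and its gene (chromosome 3, 95878503 to 95882251, minus strand) had 2, 5 and 0 counts in Cyr61 KO, against 8, 20 and 46 counts in Control. In CPM these are 0.0594, 0.177 and 0 in Cyr61 KO, where the count of 0 allows up to 0.0841 CPM by counting error alone, against 0.225, 0.688 and 1.42 in Control. Every knockout value lay below every Control value. Ciart did not pass the filter on low counts, and no fold change is given.

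Bhlhe40 and Bhlhe41 (DEC1 and DEC2) encode related helix-loop-helix proteins that compete at E-boxes. Bhlhe40 (chromosome 6, 108660629 to 108666925, plus strand) was at 85.0, 131.2 and 45.3 CPM in Cyr61 KO, against 67.2, 50.4 and 125.9 CPM in Control. The groups overlapped throughout, with a log2 fold change of 0.10 ± 0.44 (SE) whose sign turned with library totals as the only scaling (-0.12) and without Cyr61 KO replicate 2 (-0.30) or Control replicate 2 (-0.12). Bhlhe41 (chromosome 6, 145858243 to 145865558, minus strand) was at 0.861, 2.48 and 0.364 CPM in Cyr61 KO, against 1.63, 3.89 and 3.0 CPM in Control. Cyr61 KO replicates 1 and 3 lay below all Control livers and replicate 2 among them, for a log2 fold change of -1.21 ± 0.68 (SE). It was -2.19 without Cyr61 KO replicate 2, -0.75 without Cyr61 KO replicate 3 and -0.53 by limma voom. Per kb of exon, Bhlhe40 averaged 18.5 in Cyr61 KO and 17.3 in Control, and Bhlhe41 0.184 in Cyr61 KO and 0.423 in Control.

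Usp2 and Wee1 were lower in every Cyr61 KO library. USP2 is a ubiquitin-specific protease whose substrates include clock proteins, and Usp2 (chromosome 9, 44067021 to 44095627, plus strand) was at 2.82, 3.72 and 4.04 CPM in Cyr61 KO, against 5.03, 8.43 and 10.4 CPM in Control. The knockouts spread 1.43-fold and the Control values 2.06-fold, with a log2 fold change of -1.17 ± 0.34 (SE). WEE1 is the kinase that holds CDK1 inactive before mitosis, and its gene (chromosome 7, 110122046 to 110143286, plus strand) is a direct clock target in regenerating mouse liver. Wee1 was at 2.17, 5.39 and 4.99 CPM in Cyr61 KO, against 7.70, 6.47 and 8.60 CPM in Control. The separation was small beside the spread, with a log2 fold change of -0.86 ± 0.37 (SE), or -0.54 without Cyr61 KO replicate 1.

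The partners of WEE1 at mitotic entry also had negative estimates, with none of them called. Of 9 genes 0 had an adjusted p below 0.05 by edgeR's quasi-likelihood test (the rule for every call below), 2 had an unadjusted p below 0.05, DESeq2 called 2 and limma voom 6. Over all genes those shares were 3.44% by edgeR, 27.4% by unadjusted p, 16.8% by DESeq2 and 33.1% by limma voom. All 9 log2 fold changes were negative, at a median of -1.26 against -0.03 for all 13563 genes tested. Cdk1, the mitotic kinase itself, was at 3.77, 1.53 and 6.08 CPM in Cyr61 KO, against 8.54, 14.6 and 6.81 CPM in Control. Ccnb2, its cyclin, was at 0.475, 0.355 and 3.90 CPM in Cyr61 KO, against 6.07, 10.7 and 3.59 CPM in Control. Cyr61 KO replicate 3 lay inside the Control range for Ccnb2, while its Wee1, at 4.99 CPM, was below every Control. Without that replicate edgeR called 5 of the 9 lower.

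Rgs16 (chromosome 1, 153740349 to 153745468, plus strand) had the largest difference of the 9 tested members. RGS16 speeds the shut-off of G protein signalling, and in mouse liver the gene is known to respond to feeding and fasting. It was at 45.8, 21.1 and 17.7 CPM in Cyr61 KO, against 3.40, 2.65 and 2.94 CPM in Control. The Control livers lay within 1.28-fold of each other, and the lowest knockout was well above them. The means were 28.2 ± 15.3 CPM in Cyr61 KO and 3.0 ± 0.377 CPM in Control (SD, n = 3 each), 9.39-fold higher on the fitted scale, a log2 fold change of 3.23 ± 0.39 (SE). Leaving out each library in turn gave 2.70 to 3.49. Rgs16 was the 1 of 9 tested members that edgeR called, where 3.44% of all tested genes were called. With no filter on low counts it called 2, Hlf and Rgs16, where 5.28% of all genes were called. As this contrast chose the members, nothing is read from those counts. Across the table the calls comprised 145 genes up and 322 down. With library totals as the only scaling they comprised 27 up and 23 down, and the median difference over the table shifted to -0.30 (log2). The groups did not overlap in 5 of the 9 tested members (Hlf, Nfil3 and Rgs16 higher, Usp2 and Wee1 lower), against 35.2% of the genes in the fit.

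Among the other Rgs family members edgeR called none higher. Of 19 listed relatives 10 had enough counts to test and 3 fell, where edgeR called 3.44% of all tested genes. The 10 had a median log2 fold change of -1.43, and 3 of them had a positive estimate. Of those 3, Rgs12 was at 6.95, 6.92 and 7.54 CPM in Cyr61 KO, against 5.06, 4.54 and 5.29 CPM in Control, higher without overlap but not called, and limma voom called Rgs3 higher at 1.01. The 3 were Rgs1 at -2.93 ± 0.53, Rgs2 at -1.95 ± 0.36 and Rgs10 at -2.78 ± 0.50 (SE; edgeR adjusted p = 0.0300, 0.0317 and 0.0304), while Rgs19 was at -1.89 ± 0.54 and was not called. Rgs1 and Rgs10 are known for their expression in leukocytes. In these livers Rgs1 was at 0.594, 0.816 and 1.37 CPM in Cyr61 KO, against 6.21, 11.6 and 3.62 CPM in Control. None of the 10 was called without Cyr61 KO replicate 1, without Cyr61 KO replicate 2 or with library totals as the only scaling, where the medians were -1.75, -1.76 and -1.73. Without Control replicate 3, 5 were called lower.

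Summed markers of most other cell types were lower in every Cyr61 KO library, and those of endothelium overlapped. The summed level of 15 macrophage markers was 239.7 to 683 CPM in Cyr61 KO and 797 to 1232 CPM in Control. Of the 15, 7 were lower without overlap, 7 overlapped and 1, the resident macrophage gene Timd4, was higher without overlap, where 35.2% of all tested genes did not overlap. Timd4 was at 5.44, 3.62 and 9.17 CPM in Cyr61 KO, against 2.05, 2.03 and 2.01 CPM in Control. The more abundant resident macrophage genes Clec4f, Vsig4 and Marco overlapped, at log2 fold changes of 0.22 ± 0.31, -0.15 ± 0.38 and -0.33 ± 0.65 (SE). Lyz2, a large part of the Control sums, was at 90.6, 53.2 and 180.2 CPM in Cyr61 KO, against 546, 588 and 344 CPM in Control. The sum of 11 measured lymphocyte markers of 12 listed was 7.49 to 8.80 CPM in Cyr61 KO and 23.6 to 128 CPM in Control, and that of 7 neutrophil markers of 8 listed, of which Mmp8 was at 0 in some libraries, 3.02 to 7.57 CPM in Cyr61 KO and 16.9 to 75.5 CPM in Control. The 11 stellate and myofibroblast markers summed to 349 to 595 CPM in Cyr61 KO and 910.2 to 1572 CPM in Control, the 11 cholangiocyte markers to 129 to 244 CPM in Cyr61 KO and 416 to 1704 CPM in Control, and the 10 endothelial markers to 234 to 349.7 CPM in Cyr61 KO and 167 to 301 CPM in Control. Control replicate 2, with the least hepatocyte marker RNA, had the highest Control sum of each of these lists. In Control replicates 1 and 3 the sums were 23.6 and 24.4 CPM for lymphocyte, 16.9 and 33.6 CPM for neutrophil and 455 and 416 CPM for cholangiocyte markers. Bhlhe40, Bhlhe41 and Nfil3 are also expressed by leukocytes. In whole liver, fewer cells of a type and less RNA per cell cannot be told apart, and the part of these cells in the members' values was not tested.

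The genes nearest in pattern to Rgs16 were of mixed kinds. Nearness was measured as the root mean square difference of log2(CPM + 0.5) over the 6 libraries after each gene's mean was removed. It was ranked among 9537 genes with a mean of at least 5 CPM. The members and gene models named Gm or ending in Rik were left out of these. The nearest to Rgs16 were Elovl3, a fatty acid elongase gene with daily rhythm in liver, at 0.17, Cd163, a macrophage scavenger receptor gene, at 0.32, the leptin receptor gene Lepr at 0.49 and Me1, malic enzyme, at 0.50. Elovl3 was at 525, 239.5 and 203 CPM in Cyr61 KO, against 58.7, 39.9 and 36.4 CPM in Control. Its highest library was that of Rgs16, Cyr61 KO replicate 1. The measure includes the difference between the groups. Rgs16 itself, at a mean of 3.0 CPM in Control and 28.2 CPM in Cyr61 KO, reached the minimum mean only through Cyr61 KO. Genes higher in Cyr61 KO were therefore bound to lie nearest. Within Cyr61 KO, Me1 was highest in replicate 2, at 603, 698 and 504 CPM, and Lepr was nearly level, at 31.4, 27.5 and 27.7 CPM. Cd163 reached the minimum mean only through Cyr61 KO, with 14.4, 7.59 and 6.42 CPM there, against 0.730, 0.379 and 1.42 CPM in Control, so a group difference was built into its entry.

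The patterns nearest to Dbp were looser. Upp2, a uridine phosphorylase gene, came first at 0.90, followed by Nnmt at 0.97, Mmd2 at 0.97 and Serpina1e, which has close copies that make its counts uncertain, at 1.02. Mmd2 reached the minimum mean only through Control. The nearest member was Tef at 1.18. Upp2 was at 93.1, 120.2 and 18.6 CPM in Cyr61 KO, against 143.5, 99.9 and 146 CPM in Control, so it shared with Dbp the low value in Cyr61 KO replicate 3.

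**Figure D3:**
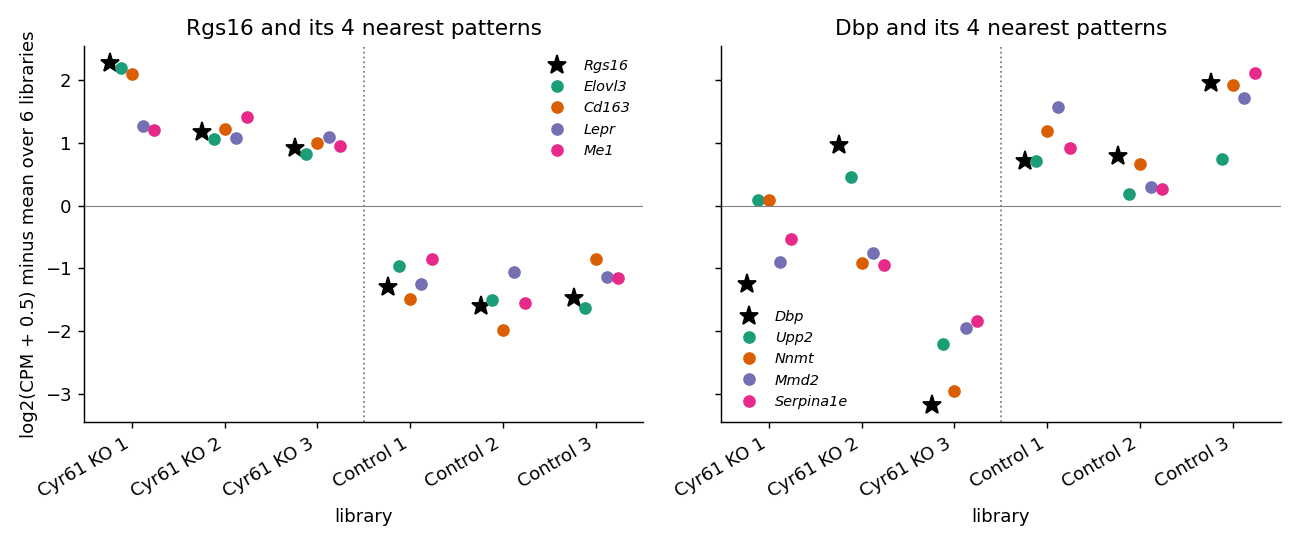
Each library's log2(CPM + 0.5) minus the gene's mean over the 6 libraries, for Rgs16 (left panel) and Dbp (right panel) as stars and their 4 nearest genes as dots, with Cyr61 KO libraries left of the dotted line. Elovl3 follows Rgs16 within a root mean square difference of 0.17, whereas the genes nearest to Dbp are 0.90 to 1.02 away.

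Carbohydrate-responsive genes, a programme to which mouse Rgs16 has been linked, rose in part. Of 14 listed genes 4 rose and 0 fell, at a median log2 fold change of 1.04. They were Me1 at 2.36 ± 0.30, Fasn, fatty acid synthase, at 2.23 ± 0.32, Pklr, liver pyruvate kinase, at 2.49 ± 0.40, and Acly, ATP citrate lyase, at 2.0 ± 0.34 (SE; edgeR adjusted p = 0.0136, 0.0184, 0.0237 and 0.0272). Mlxipl, which encodes the carbohydrate-response factor ChREBP, was at 224, 271 and 205 CPM in Cyr61 KO, against 101, 237 and 74.4 CPM in Control, where replicate 2 overlapped the knockouts. Of the 14, 8 were higher without overlap and 6 overlapped, where 35.2% of all tested genes did not overlap. Among those 6, Txnip was at -0.70 ± 0.44, Arrdc4 at 0.03 ± 0.27, Gckr at 0.07 ± 0.25 and Mlx at -0.002 ± 0.21 (SE). G6pc, also overlapping, was at 1.43 ± 0.62 (SE). Beside the 4 of 14, edgeR called 3.44% of all tested genes. Without Cyr61 KO replicate 1 or 2 edgeR called 0 of the 14, at medians of 0.99 and 0.89. Without Control replicate 1 it called 2.

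Library by library, several members had their highest or lowest value in the same library. Among the knockouts, replicate 2 had the highest Dbp, Tef, Hlf, Ciart, Bhlhe40, Bhlhe41 and Wee1 and the lowest Nfil3. Nfil3 and Rgs16 were highest in replicate 1 and Usp2 in replicate 3. Replicate 3 had the lowest Dbp, Tef, Ciart, Bhlhe40, Bhlhe41 and Rgs16, and replicate 1 the lowest Hlf, Usp2 and Wee1. Among the Controls, replicate 3 had the highest Dbp, Tef, Hlf, Ciart, Bhlhe40, Usp2 and Wee1. Nfil3 and Rgs16 were highest in Control replicate 1 and Bhlhe41 in Control replicate 2. The share of all genes with such extremes was not counted, so nothing is read from these orders. On the log2(CPM + 0.5) scale, Dbp spread over 4.13 within Cyr61 KO, wider than 99.98% of 9789 genes with a mean of at least 5 CPM, whose median spread was 0.48. Within Control it spread over 1.26, wider than 89.8% of them, where the median was 0.57. Tef spread over 1.92 within Cyr61 KO (wider than 99.2%) and 0.44 within Control (wider than 37.4%), and Bhlhe40 over 1.52 within Cyr61 KO (wider than 97.4%) and 1.31 within Control (wider than 91.2%). Usp2 spread over 0.45 within Cyr61 KO and 0.97 within Control.

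Part of the core loop also differed between the groups. Of 11 listed genes 1 rose and 1 fell, where edgeR called 3.44% of all tested genes. The median log2 fold change was 0.22 against -0.03 for all genes. Npas2, a partner of ARNTL, rose by 1.74 ± 0.34, while the period gene Per1 fell by 1.78 ± 0.37 on the log2 scale (SE; edgeR adjusted p = 0.0378 and 0.0428). Npas2 was at 10.9, 9.29 and 18.6 CPM in Cyr61 KO, against 4.44, 4.41 and 2.78 CPM in Control. Per1 was at 3.21, 3.65 and 2.64 CPM in Cyr61 KO, against 5.81, 14.6 and 12.2 CPM in Control. The groups were separate for both genes. The calls depended on single libraries: 0 of the 11 were called without Cyr61 KO replicate 1, without Cyr61 KO replicate 2, without Control replicate 2 or with library totals as the only scaling, which put the median at -0.08. Without Cyr61 KO replicate 1 or 2, when the whole table had 7 and 24 calls, the estimates were 1.86 and 1.95 for Npas2 and -1.78 and -1.88 for Per1. Without Cyr61 KO replicate 3 the call of Per1 was lost, and without Control replicate 1 that of Npas2. Among the rest, not called with all libraries, Arntl was at 1.17 ± 0.32, Clock at 0.83 ± 0.21, Cry1 at 1.48 ± 0.35, Cry2 at 0.65 ± 0.33 and Rora at 0.22 ± 0.20 (SE). Per2 was at 0.05 ± 0.53, Per3 at -1.20 ± 0.64, Nr1d1 at 0.12 ± 0.35 and Nr1d2 at -0.39 ± 0.33 (SE). Without Cyr61 KO replicate 3 or without Control replicate 1 edgeR called Cry1 higher. DESeq2 called Arntl, Clock and Cry1 higher and limma voom Clock and Cry1, where those methods called 16.8% and 33.1% of all genes. Of the 11 genes, 5 were higher without overlap (Arntl, Clock, Npas2, Rora and Cry1), 1 was lower (Per1) and 5 overlapped, where 35.2% of all tested genes did not overlap. For Rora the lowest knockout, at 71.18 CPM, and the highest Control, at 70.98 CPM, nearly touched.

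Arntl and Dbp, which peak at different times of day, were set against each other as a ratio of CPM, read only between libraries since the genes differ in length. The ratio of Arntl to Dbp was 2.89, 0.367 and 13.1 in Cyr61 KO, against 0.408, 0.206 and 0.0906 in Control. Cyr61 KO replicate 2 lay inside the Control range and the other knockouts above it. Arntl was at 29.2, 17.8 and 30.1 CPM in Cyr61 KO, against 16.6, 8.88 and 8.85 CPM in Control, so its own groups did not overlap. Per3 was at 0.832, 4.93 and 1.15 CPM in Cyr61 KO, against 3.96, 7.13 and 4.67 CPM in Control, again with replicate 2 the only knockout among the Controls.

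**Figure D4:**
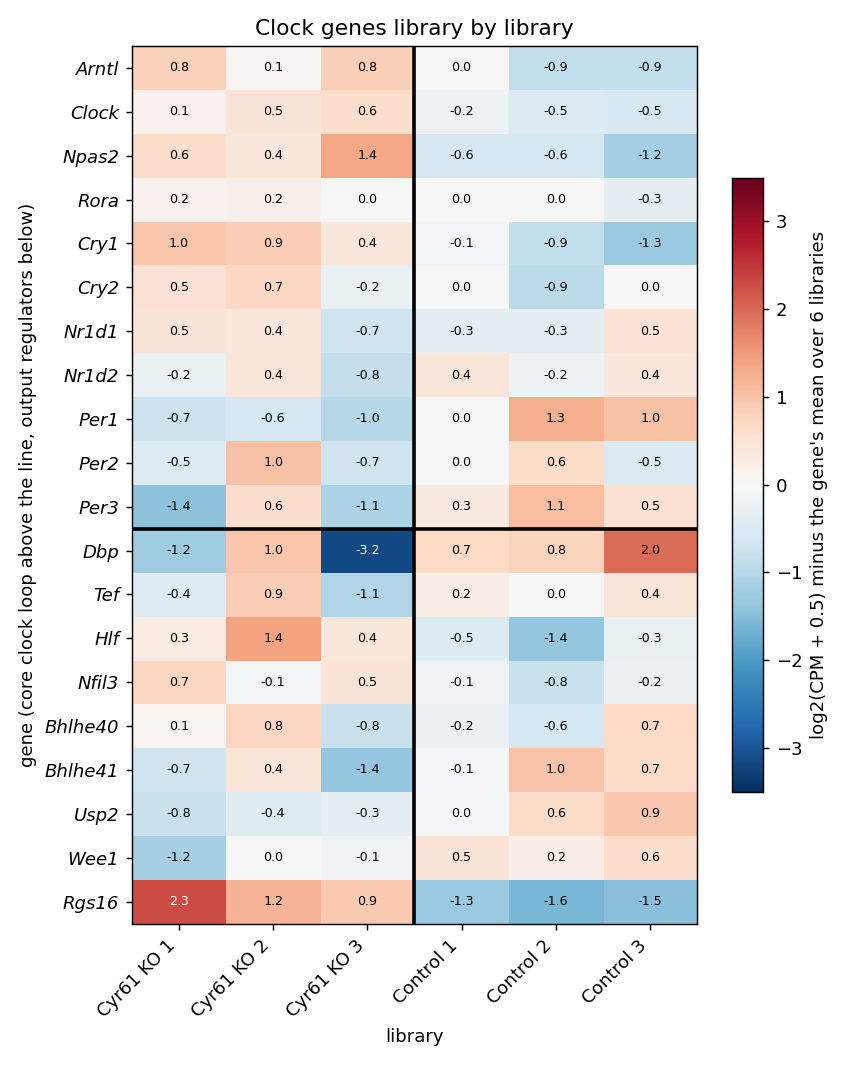
Heat map of log2(CPM + 0.5) minus each gene's mean over the 6 libraries, for the 11 core clock loop genes (above the black line) and the 9 tested output regulators (below), with Cyr61 KO libraries left of Control. Dbp runs across the widest range, with its lowest value in Cyr61 KO replicate 3 and its highest in Control replicate 3, and Cyr61 KO replicate 2 differs from the other knockouts in Dbp, Tef, Per2 and Per3.

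**Figure D5:**
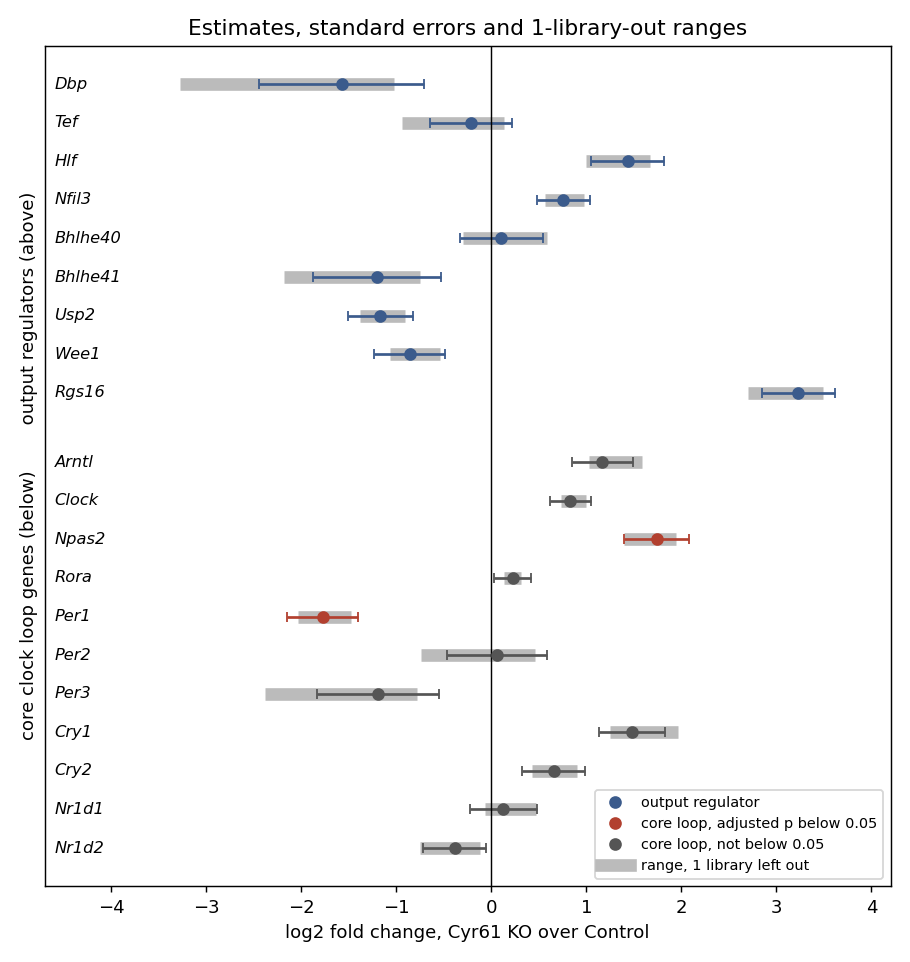
Points give the log2 fold change of Cyr61 KO over Control with its standard error for the tested output regulators and the core clock loop genes; grey bars give the range when each library is left out in turn, blue marks the output regulators, and red a core loop gene with an edgeR adjusted p below 0.05. Dbp, Bhlhe41 and Per3 have long grey bars, reaching -3.27 for Dbp without Cyr61 KO replicate 2, whereas that of Rgs16 runs from 2.70 to 3.49.

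Genes known or proposed to lie downstream of these regulators had estimates of both signs, and most were not called. Of 12 known or proposed targets of the PAR bZIP factors, 1 rose and 1 fell, where edgeR called 3.44% of all tested genes. The median log2 fold change was 0.61 against -0.03 for all genes. Nr1i3, which encodes the xenobiotic receptor CAR, rose by 1.61 ± 0.22 and Lpl, lipoprotein lipase, fell by 1.86 ± 0.40 on the log2 scale (SE; edgeR adjusted p = 0.0176 and 0.0445). Nr1i3 was at 60.5, 51.5 and 38.1 CPM in Cyr61 KO, against 15.7, 17.5 and 16.2 CPM in Control; its highest value was in Cyr61 KO replicate 1, where Dbp was at 10.1 CPM. Lpl is also a macrophage gene, and its call was lost without Cyr61 KO replicate 1 or 2 and without Control replicate 1 or 2. Ppara, the fatty acid sensor, was at 1.38 ± 0.34 and the thioesterase gene Acot3 at 1.97 ± 0.50 (SE), neither called. Por, which encodes the electron donor of the cytochromes P450, was at 266, 224 and 182 CPM in Cyr61 KO, against 366, 149 and 405 CPM in Control, with the groups overlapping.

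Of 15 measured genes from a list of 16 other clock-controlled liver transcripts, 2 rose and 0 fell, at a median of 0.34. Over all tested genes edgeR called 3.44%, at a median of -0.03. Elovl3 rose by 2.84 ± 0.42 and Ppp1r3b, a glycogen-targeting subunit of protein phosphatase 1, by 2.02 ± 0.30 on the log2 scale (SE; edgeR adjusted p = 0.0195 and 0.0205). The vasopressin receptor gene Avpr1a at 1.20 ± 0.27 and the glycogen synthase gene Gys2 at 0.79 ± 0.25 were not called. Neither target list kept a call without Cyr61 KO replicate 1 or 2, when the estimates were 1.46 and 1.60 for Nr1i3 and 2.31 and 3.03 for Elovl3. Without Control replicate 1 the calls were Nr1i3 and Elovl3. Of 13 kinases, ligases and related regulators of clock protein turnover 0 were called by edgeR, 3 had an unadjusted p below 0.05, DESeq2 called 2 and limma voom 3, against 27.4%, 16.8% and 33.1% of all genes by those rules. Csnk1e, casein kinase 1 epsilon, was at 8.26, 8.05 and 10.7 CPM in Cyr61 KO, against 13.1, 22.4 and 12.7 CPM in Control.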

How the data were processed

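Bulk RNA-seq read counts per gene were analysed for 3 Cyr61 KO and 3 Control livers. The authors deposited STAR gene counts in 1 table per library, unstranded and for each strand. The submitters' processing notes name STAR 2.6.1a, Trimmomatic 0.38 and the builds mm10 and hg38. The annotation release is not given in the sources used here. The kit was directional per the labels, so reverse-strand counts were tested. The forward strand held 0.928% to 1.35% of stranded counts. Reads outside genes made up 4.27% to 7.14% of reads, and 25.7% in Control replicate 2, and stayed out. A deposited whole-series table held the unstranded counts in all 6 columns for the 24384 symbols matched by name.

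Genes passing filterByExpr (minimum count 10, minimum total 15) entered the two-sided quasi-likelihood F test of edgeR 4.0.16 (R 4.3.3) after TMM scaling with a group term, and Benjamini-Hochberg adjusted p below 0.05 was called. SE was obtained by dividing the size of the log2 difference by the root of F. The fits were tested on simulated data. Libraries of a group differed by more than sampling noise (chi-square per degree of freedom at least 57.8). Alternatives were DESeq2 1.42.0, limma 3.58.1 voom with quality weights, other scalings and filters, a block for replicate number, unstranded counts and leaving out each library. The members and lists were chosen with earlier results of these data known. A further gene of the core loop is not reported here and is in none of that list's counts. Named genes are the members, the core loop list, up to 4 genes per list by p and the 4 patterns nearest to Dbp and Rgs16. The further genes named were chosen after their values were seen: Mlxipl, Mlx, Txnip, Arrdc4, Gckr, G6pc, Por, Rgs3, Rgs12, Timd4, Lyz2, Apoa1, Ass1, Clec4f, Vsig4, Marco, Kdr and Clec4g. Positions are those of GENCODE M21 on GRCm38, where all 10 members were found.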

Additional observations from a re-analysis of the deposited data

How the results depend on the processing

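Genes called numbered 2273 with DESeq2, 4483 with limma voom, 50 with library totals as the only scaling and 944 with no low-count filter, against 467, and 7 to 878 when each library was left out. Among the output regulators 3 were called with DESeq2 (Hlf, Usp2 and Rgs16; 16.8% of all genes), 3 with limma voom (Hlf, Wee1 and Rgs16; 33.1% of all genes) and 2 with no low-count filter (Hlf and Rgs16; 5.28% of all genes), against 1, and 1 to 2 with a library left out. As this contrast chose them, nothing is read from these counts. Of the core loop genes 5, 4, 0 and 4 were called with DESeq2, limma voom, library totals and no low-count filter, against 2, and 0 to 2 with a library left out. Of the PAR bZIP targets and clock-controlled liver genes together 9, 12, 2 and 7 were called in those settings, against 4, and 0 to 6 with a library left out. With the replicate number as a block (replicate block), 4 core loop genes were called. Deviations of same-numbered libraries from their group means correlated at -0.45 to -0.08, and those of other Cyr61 KO and Control pairs at -0.18 to 0.34. Deviations within a group of 3 sum to 0, so these values cannot decide whether same-numbered libraries share more than a number. Low counts limit what can be said of Ciart. The sign of Tef turned with limma voom (0.022) and without Cyr61 KO replicate 3, for a range of -0.94 to 0.14 over libraries left out, and that of Bhlhe40 with library totals (-0.12) and without Cyr61 KO replicate 2 or Control replicate 2 (range -0.30 to 0.58). Dbp, Hlf, Nfil3, Bhlhe41, Usp2, Wee1 and Rgs16 kept their sign in all 14 alternatives. The cause of these shifts was not tested.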
